A study of Bos taurus with 2 samples.

Results

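The genes described here are 39 members of the bovine chemokine system, 23 chemokine ligands and 16 chemokine receptors, measured in Holstein (Bos taurus) whole blood. They were chosen as every array probe, control spots aside, whose array symbol or whose RefSeq accession, older symbols included, named one of the 39. This gave 76 of the 43653 distinct probes, 49 for ligands and 27 for receptors, and the 39 members stand among 16959 genes named on the array. One blood specimen was labelled as low and the other as high feed efficiency, and each was hybridised to 1 array as Cy3-labelled cRNA made from total RNA. Low feed efficiency goes with a high residual feed intake, that is, with eating more feed than growth, upkeep and milk would predict. The labels give no age, sex or ration nor how many animals contributed to either specimen. With 1 array per group no difference has a replicate check, a test or a p-value, and the number of arrays limits the precision.

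Chemokines are small secreted proteins that guide leukocytes along a gradient. They are grouped by the spacing of their first cysteines into the CXC, CC and CX3C families and bind receptors with several membrane-spanning helices that signal through inhibitory G proteins. In blood the receptors sit on circulating leukocytes, each cell type with its own set, while many ligands are made mainly in tissues such as lymphoid stroma, endothelium, gut and skin.

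Intensity here means a spot's median pixel value less its background, in arbitrary units, and was 98 at the 75th percentile of the low efficiency array and 81 at that of the high efficiency array. Each difference is a log2 ratio of low to high feed efficiency, taken after each intensity was divided by its array's 75th percentile, so a raw intensity that is equal on both arrays gives a difference of -0.27, as for CXCR3. A probe was above background when its intensity exceeded 10.9, the threshold on both arrays. Where a probe had replicate spots, the SD of its log2 difference was 0.10 for bright probes (12 probes, 47 spots) and 0.23 for dim ones (24 probes, 91 spots). It describes spot noise on these arrays, not the spread between animals. Intensities of different genes come from different probes, so an order of brightness among genes, used only to choose which markers to name, is not an order of transcript levels. Markers of the blood cell types were present: the haemoglobin chain HBB read 6549 and 4517 in low and high feed efficiency, the neutrophil protein S100A8 read 17264 and 13316, the T cell receptor chain CD3E read 4473 and 4130, and the B cell receptor component CD79A read 2877 and 2207.

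Receptors were detected far more often than ligands. Probes that were bright although the scanner software marked the spot as not found were left out, while dim ones so marked were kept as below background. Of the 25 receptor probes then left, 20 (80%) were above background on the low and 19 (76%) on the high efficiency array. Of 48 ligand probes, 18 (37.5%) were above background on the low and 16 (33.3%) on the high efficiency array. Over all 34067 named probes the shares were 59.3% and 55.5%, between those of ligands and receptors on both arrays. By gene, 12 of 15 receptors with a probe (80%) and 7 of 23 ligands (30.4%) were above background on both arrays, against 61.2% of 16888 genes. In all, 19 of 38 members with a probe were measured on both arrays. CCR10 was not measured here.

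**Figure D1:**
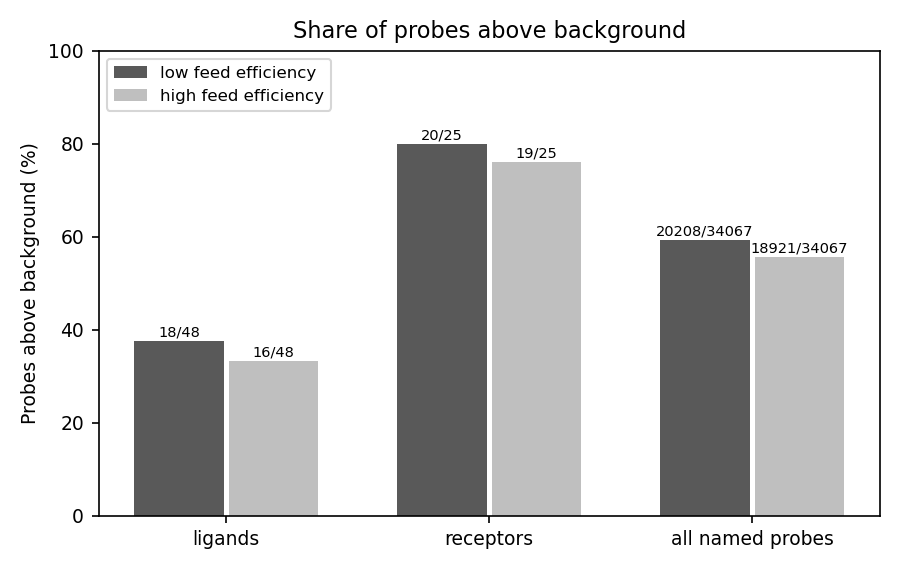
The bars give the percent of probes above background on each array (dark, low feed efficiency; light, high feed efficiency) for chemokine ligands, chemokine receptors and all named probes, with the number of probes above each bar. Receptor probes stand at 80% and 76%, ligand probes at 37.5% and 33.3%, and all named probes lie between them.

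The 14 ligands below background on both arrays were CXCL2, CXCL3 and CXCL5, which draw neutrophils; CXCL9, an interferon-induced ligand of CXCR3; CCL2, CCL8, CCL11, CCL14 and CCL24, which draw monocytes or eosinophils; CCL17 and CCL22, ligands of CCR4; CCL20, the ligand of CCR6; CCL21, a lymph node ligand of CCR7; and CX3CL1, the membrane-bound ligand of CX3CR1. Their 23 probes read -2 to 9 in low and -3 to 8 in high feed efficiency. One further CCL8 probe read 19 and 21 but was marked as not found on both arrays and was left out. The receptors below background on both arrays were CCR6, found on B cells and T helper cells, at 5 on the low and 6 on the high efficiency array, and CCR8, a receptor of T cell subsets, at 1 and -2.

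A pair of ligands and 1 receptor passed the threshold on the low efficiency array only. By gene, 22 members were above background on the low and 19 on the high efficiency array. Over all 16888 genes these counts were 11133 and 10626, so more genes in general passed on the low efficiency array. CXCL12, the stromal ligand of CXCR4, read 11 on the low and 5 on the high efficiency array by its brightest probe, and its other 3 probes read 4 to 10. CCL19, a lymphoid ligand of CCR7, read 13 and 7. For both the bound was under 1-fold, so no fold is given. CCR9, the gut-homing receptor, read 16 and 10 by 1 probe, which gives a bound of 1.20-fold higher in low feed efficiency. In log2 the bound is 0.27, close to the dim-spot SD of 0.23, so it is no firm lower limit. Another CCR9 probe, at 18 and 10, was marked as not found and left out, and a further one read 2 and -4.

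None of the 19 measured members was 2-fold apart, where, of the 10339 genes measured, 0.368% were 2-fold or more higher in low feed efficiency and 0.571% were 2-fold or more lower. At 1.5-fold, 3 members were lower (CXCL8, CCL4 and CCR3), where 3.14% of all genes were, and none was higher, where 2.68% of all genes were. The median difference was -0.08 over the 7 ligands, -0.07 over the 12 receptors and -0.04 over all genes, and all 3 medians turn positive (0.28, 0.29 and 0.32) when the arrays are scaled on 7 spike-in controls. That scaling adds 0.36 to each difference and leaves each gene's distance from the median of all genes as it was. Under it no member was 1.5-fold lower, and CCR1 (0.61) and CCR2 (0.59) were 1.5-fold higher, with 71 genes lower and 1849 higher in all. With normexp background correction no member was 1.5-fold lower, where 0.464% of all genes were. Relative to the median of all genes, 5 of 7 ligands were lower and the receptors were split, 6 above and 6 below.

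**Figure D2:**
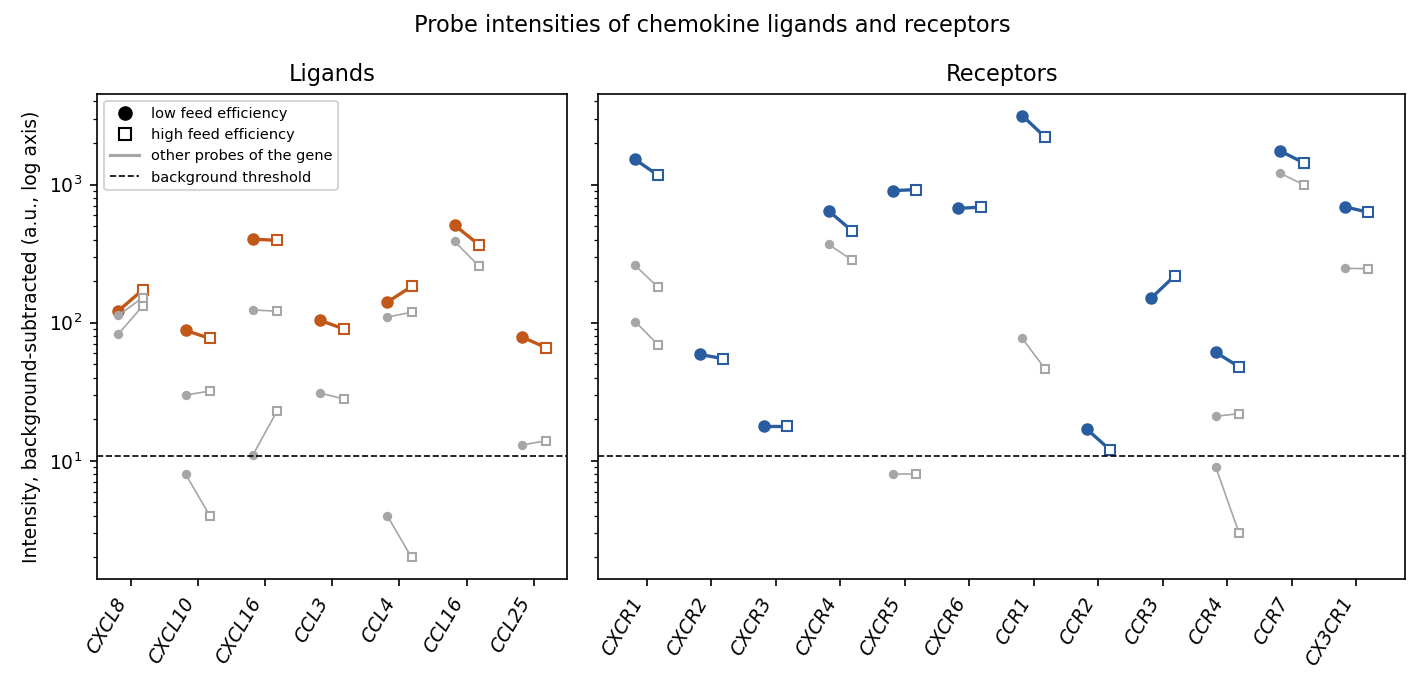
Each line joins the background-subtracted intensity of a probe (arbitrary units, log axis) on the low (filled circle) and the high feed efficiency array (open square), in colour for the brightest probe of a gene and in grey for its other probes, with the background threshold dashed; 1 probe of CCL3 with an intensity of 0 is not drawn. The lines of CXCL8, CCL4 and CCR3 climb to the high efficiency array, and that of CCR1 descends from 3161 to 2195.

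Among the 4 members that are neutrophil-drawing ligands (CXCL2, CXCL3, CXCL5 and CXCL8), CXCL8 alone was above background. CXCL8 (interleukin 8, IL8 on the array) is the main neutrophil-attracting chemokine. Its 3 probes read 122, 113 and 83 in low against 173, 152 and 132 in high feed efficiency, so each was dimmer on the low efficiency array. The differences were -0.78, -0.70 and -0.94, or 1.72-fold lower by the brightest probe. This is several times the spot SD of 0.10, and 1.29% of all genes had a lower difference. It stayed below 0 in all 15 alternative settings (-0.81 to -0.42), though with normexp background correction it was -0.53, under 1.5-fold.

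The 2 receptors of CXCL8 lie next to each other in the genome and had small differences of opposite sign. CXCR1 read 1521 on the low and 1166 on the high efficiency array, a difference of 0.11. Its other 2 probes read 260 and 180 (0.26), and 102 and 69 (0.29), all on the higher side. CXCR2 read 59 and 55, a difference of -0.17 that was within the dim-spot SD of 0.23 and was 0.19 with spike-in scaling. These names rest on the RefSeq gene table of assembly ARS-UCD2.0: the array itself gives the symbol CXCR2 to the 2 brightest probes assigned here to CXCR1, and with the array's symbols alone CXCR2 would be 0.11 and CXCR1 0.29. Neutrophils carry both receptors. Of the 10 neutrophil markers listed, 8 were measured, 7 of them above the median of all genes, with a median of 0.14 and summed scaled levels of 818 on the low and 722 on the high efficiency array. The brightest were S100A12, at 48851 and 34561 (0.22), and S100A8 (0.10). CD177 was below background at 2 and 4. The part of these markers in the values of CXCL8, CXCR1 and CXCR2 was not tested.

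CXCR4, the receptor of CXCL12 that holds leukocytes in bone marrow, was higher in low feed efficiency by both probes. The probes read 645 and 464, a difference of 0.20, and 369 and 285, a difference of 0.10. The brightest probe's difference was 2 times the spot SD, and its fold was 1.15. CXCR4 stayed above 0 in all 15 alternatives, from 0.15 to 0.56.

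The inflammatory CC ligands CCL3 and CCL4, close relatives with 1 gene between them, differed unequally. CCL4 read 141 on the low and 183 on the high efficiency array by its brightest probe and 110 and 119 by the next. The differences were -0.65 (1.57-fold lower) and -0.39, so only the brightest probe passed 1.5-fold. Its other probe, at 4 and 2, was below background. CCL4 stayed below 0 in all 15 alternatives, from -0.70 to -0.29, and was -0.45, under 1.5-fold, with normexp. CCL3 read 104 and 90, a difference of -0.07, and 31 and 28 by a further probe, a difference of -0.13. Both values of CCL3 were within the dim-spot SD, and with spike-in scaling the first was 0.30.

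CCL16, a CC chemokine known from the liver, was the only one of the 7 measured ligand members above 0, whereas with spike-in scaling all of the 7 but CXCL8 and CCL4 were. Its probes read 509 and 368, a difference of 0.19, and 388 and 258, a difference of 0.31. CCL16 was higher in low feed efficiency in all 15 alternatives, from 0.18 to 0.56. Its neighbour CCL14, the next gene on the chromosome, was below background on both arrays.

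CCR1, a receptor for CCL3, CCL16 and other CC ligands on monocytes and granulocytes, read 3161 on the low and 2195 on the high efficiency array. Its other probe read 77 and 46. The differences were 0.25 and 0.47, so both probes were brighter on the low efficiency array and neither reached 1.5-fold. CCR1 stayed above 0 in all 15 alternatives, and 84.4% of all genes had a lower difference. CCR2, the CCL2 receptor of monocytes, lay near background at 17 and 12. Its difference of 0.23 was within the dim-spot SD, and it was -0.07 with normexp and -0.09 with the pixel mean and no background subtracted.

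CCR3, the eotaxin receptor of eosinophils and basophils, had the lowest difference among the members. It was read by 1 probe, at 151 on the low and 218 on the high efficiency array. The difference was -0.80, or 1.75-fold lower, and 1.18% of all genes had a lower difference. CCR3 stayed below 0 in all 14 alternatives that kept its spot, from -1.02 with the pixel mean to -0.44 with spike-in scaling, and was -0.57, under 1.5-fold, with normexp. The scanner software left the spot on the low efficiency array unflagged rather than marked good, so CCR3 drops out when only good spots are kept. CCR1, its neighbour with no gene between, had the opposite sign. Of the 10 eosinophil and basophil markers, 5 were on the array and 2 were measured on both arrays: ALOX15, a lipoxygenase, at -0.10, and HDC, which makes histamine, at -0.19. Their summed scaled level was 14.98 and 16.12 on the low and high efficiency arrays. Of the other 3, SIGLEC8 read 17 and 9, EPX 4 and 10, and CPA3 at most 2 and 4 over its 2 probes. Each was below background on 1 or both arrays. The part of these cells in the value of CCR3 was not tested. In whole blood, fewer cells of a type and less RNA per cell cannot be told apart.

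CX3CR1, the fractalkine receptor of monocytes, NK cells and cytotoxic T cells, read 690 on the low and 632 on the high efficiency array, a difference of -0.15. A further probe at 248 and 246 gave -0.26. The brightest probe's value was between 1 and 2 spot SDs from 0, and was 0.21 with spike-in scaling. All 7 monocyte markers were measured, 5 below the median of all genes, with a median of -0.21 and summed scaled levels of 302 on the low and 345 on the high efficiency array. The brightest of them were FCN1, a lectin, at -0.41 and LYZ, lysozyme, at 0.32 by its brightest probe and -0.05 by its other. The farthest from 0 was CSF1R, the receptor of the monocyte growth factor, at 1475 and 2214, a difference of -0.86. The part of the monocyte markers in the values of CCR1, CCR2 and CX3CR1 was not tested.

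The receptors of effector lymphocytes were lower or near 0. CXCR6, the receptor of effector T and NK cells, read 672 and 688, a difference of -0.31 that was over 2 times the spot SD. CXCR3, the receptor of type 1 helper and cytotoxic T cells, read 18 on both arrays, a difference of -0.27 after scaling. Both CXCR6 (0.05) and CXCR3 (0.09) turn positive with spike-in scaling, and both were below 0 under the other settings that kept them. CCR4, a receptor of skin-homing and type 2 helper T cells, had probes on both sides of 0. It read 61 and 48 by the brightest probe, a difference of 0.07, and 21 and 22 by another, a difference of -0.34. Another probe of CCR4 was below background at 9 and 3.

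CCR7, the receptor that brings naive lymphocytes to lymph nodes, was the member nearest to 0. It read 1749 and 1442 by one probe and 1207 and 999 by another. The differences were 0.0036 and -0.0020, far under the spot SD of 0.10. A further CCR7 probe, at 36 and 32, was marked as not found and left out. CXCR5, the receptor that brings B cells into follicles, read 905 and 921. Its difference was -0.30, or 0.06 with spike-in scaling, and it rests on 1 probe, since the other read 8 on both arrays. A probe without a gene symbol, described on the array as CXCR5, fell outside the naming rule and read 5 and 1, below background.

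Most T cell and NK cell markers were below the median of all genes. Of 10 T cell markers 9 were measured, 7 below the median of all genes, with a median of -0.16 and summed scaled levels of 211 on the low and 258 on the high efficiency array. CD28 read at most 15 on the low and 8 on the high efficiency array over its 2 probes, below background on the high efficiency array. The 2 brightest were CD4 (-0.41) and CD3E (-0.16). Each had another probe above background on the other side of 0, at 0.17 for CD4 and 0.39 for CD3E. All 8 NK and cytotoxic markers were measured, 7 below the median of all genes, with a median of -0.34 and summed scaled levels of 203 and 263. The brightest were CCL5 (-0.43) and the granzyme GZMB (-0.18), and the farthest from 0 was NKG7 (-0.65). Of 7 B cell markers 6 were measured, 3 above and 3 below that median, with a median of -0.10 and summed scaled levels of 67.3 and 71.4. The brightest was CD79A, at 0.11 by its brightest probe and -0.33 by its other. Of 4 gamma-delta T cell markers 3 were measured, with a median of 0.11 and the brightest CD163L1 (0.11) and SOX4 (0.86). The remaining one, WC1, was on the other side of 0, at 29 on both arrays (-0.27). The platelet list (4 of 6 measured) had a median of 0.02, and the erythroid list (5 of 7 measured) one of -0.05. The 2 brightest erythroid markers, the haemoglobin chains HBA at 26648 and 20058 (0.13) and HBB (0.26), were above 0. ALAS2, the haem synthesis enzyme of red cell precursors, was more than 2-fold lower at 112 and 248 (-1.42). The part of these markers in the values of CXCR3, CXCR5, CXCR6, CCR4, CCR7 and CX3CR1 was not tested.

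CXCL10 and CXCL16, ligands of CXCR3 and CXCR6, were the other measured CXC ligands. CXCL10, induced by interferon, read 88 and 77, a difference of -0.08, and 30 and 32 by another probe, a difference of -0.37. Its other probe was below background at 8 and 4. CXCL16, a membrane-bound ligand that also takes up oxidised lipoprotein, read 403 and 395, a difference of -0.25, and 124 and 121, a difference of -0.24. Its dimmest probe, at the threshold with 11 and 23, gave -1.34, so the mean over the 3 probes was -0.61. CCL25, the thymic and gut ligand of CCR9, read 79 and 66, a difference of -0.02, and 13 and 14 by a dimmer probe, a difference of -0.38. With spike-in scaling CXCL10 (0.28), CXCL16 (0.12) and CCL25 (0.35) turn positive.

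**Figure D3:**
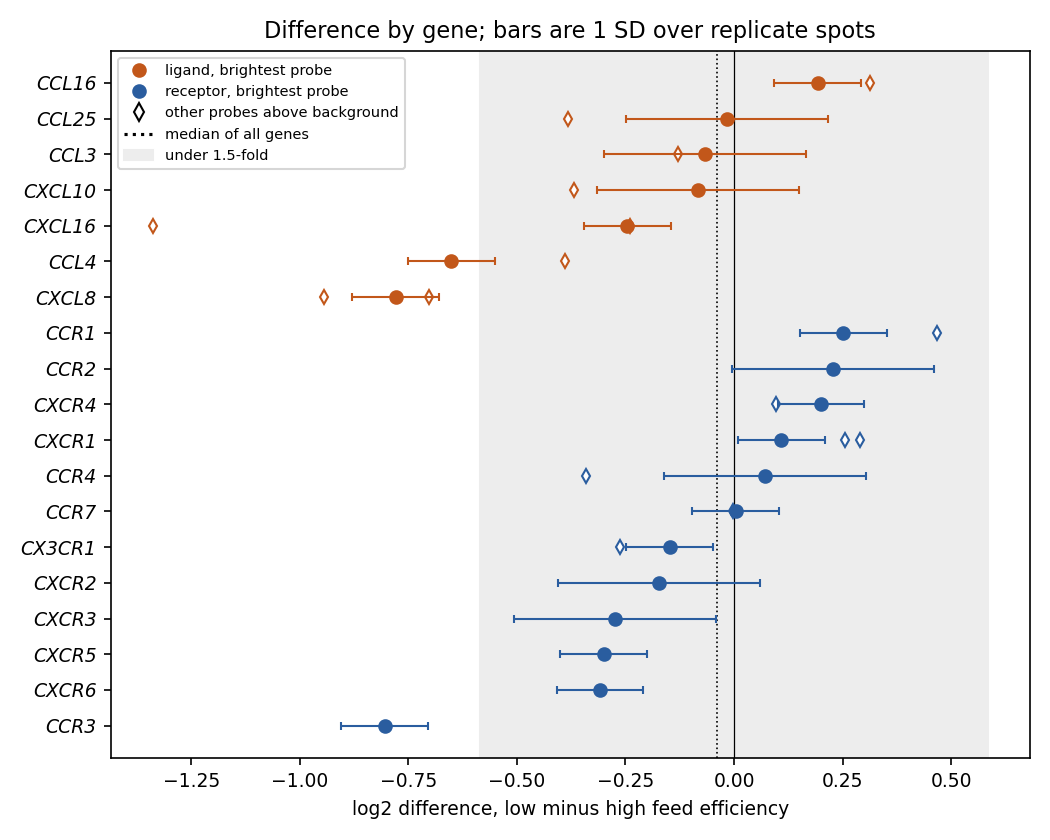
Points give the log2 difference (low minus high feed efficiency) of each measured member by its brightest probe, with bars of 1 SD over replicate spots, open diamonds for its other probes above background, a dotted line at the median of all genes and grey shading under 1.5-fold. CXCL8, CCL4 and CCR3 lie left of the shading, and all 3 would move right by 0.36, into it, with spike-in scaling.

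Set against spot noise, 7 of the 19 members were within 1 SD of 0 and 11 within 2 SDs. The 8 beyond 2 SDs were CXCL8, CXCL16, CCL4, CXCR5, CXCR6 and CCR3 on the lower side and CXCR4 and CCR1 on the higher side. With spike-in scaling CXCL16 (0.12), CXCR5 (0.06) and CXCR6 (0.05) were within 2 SDs, and CCL16 (0.56), CXCR1 (0.47), CCR2 (0.59), CCR7 (0.37) and CX3CR1 (0.21) were beyond them on the higher side. As scaled here, all 8 were bright by their main probe, and bright probes have the smaller SD. The share of all genes beyond 2 SDs was not counted. Over all genes the lower quartile of the difference was -0.22 and the upper quartile 0.15. Because the share beyond 2 SDs was not counted over all genes, the count of 8 cannot be read as particular to the members. The same holds for the counts within 1 and 2 SDs. Of 13 members with several probes above background, 11 had them all on one side of 0, and CCR4 and CCR7 did not. The share of all genes whose probes lie on one side was not counted, so this count too cannot be read as particular to the members.

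**Figure D4:**
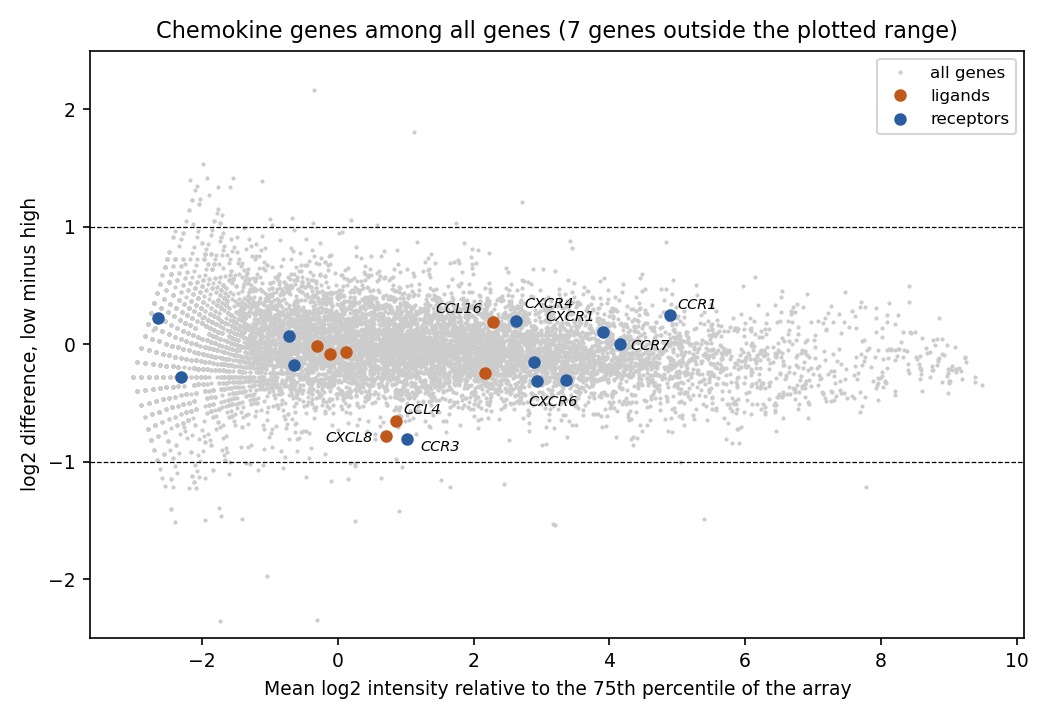
Each grey point is a gene measured on both arrays, by its mean log2 intensity relative to the 75th percentile of the array and its log2 difference (low minus high), with ligands in orange, receptors in blue and dashed lines at 2-fold; 7 genes lie outside the plotted range. CXCL8, CCL4 and CCR3 sit at the lower edge of the cloud, and the other members lie within it.

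The members' partners were mostly not both measurable. Of 23 textbook pairs of ligand and receptor among the members, 6 had both partners above background on both arrays, 15 had the receptor alone, 1 the ligand alone (CCL25 with CCR9) and 1 neither (CCL20 with CCR6). In 4 of the 6 pairs both partners were on the same side of 0: CXCL8 with CXCR2, CXCL10 with CXCR3, CXCL16 with CXCR6, and CCL16 with CCR1. CXCL8 with CXCR1 and CCL3 with CCR1 were on opposite sides. With spike-in scaling CXCL8 with CXCR2 were on opposite sides and CCL3 with CCR1 on the same side. With the array's symbols alone CXCR2 was 0.11, so CXCL8 with CXCR2 were on opposite sides there too. CXCR3 read 18 on both arrays, so its side of 0 comes from the scaling.

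Of 16 further ligands listed, 12 had a probe under the naming rule. CXCL6, also listed, was not counted, since RefSeq gives the probe with that array symbol to CXCL5. Probes described as CCL1 and CCL23 fell outside the rule. Of the 12 ligands 4 were measured, none 1.5-fold apart. They were split, 2 above and 2 below 0, with a median of 0.06. Farthest from 0 was CCL5, a ligand of CCR1 and CCR3 made by T and NK cells, at 7903 on the low and 8829 on the high efficiency array, a difference of -0.43. The platelet chemokine PF4 read 11351 and 9746, a difference of -0.05, and PPBP, a platelet chemokine that draws neutrophils, read 313 and 229, a difference of 0.18. XCL1, made by T and NK cells, read 73 and 47, a difference of 0.36. CXCL1 (GRO1 in RefSeq), which draws neutrophils, read 15 and 10, above background on the low efficiency array only. Of 10 further receptors, 9 were on the array and 5 were measured, ACKR3, CCRL2, CMKLR1 and C5AR1 among them. All 5 were above 0 by their brightest probe, with a median of 0.17, none 1.5-fold apart, and ACKR3, a scavenging receptor of CXCL12, farthest at 16 and 11, a difference of 0.27.

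Of 26 genes that carry the receptor signal, 24 were measured and none was 1.5-fold apart. Their median was -0.10, with 9 above and 15 below 0. Farthest from 0 was GRK6, a kinase that shuts off activated receptors, at 22 and 25, a difference of -0.46. RAC2, a small GTPase of blood cells that drives actin movement, read 6752 and 7244, a difference of -0.38. The G protein subunit GNAI2, which couples chemokine receptors, read 601 and 463, a difference of 0.10. Its 3 probes ran from -0.17 to 0.10.

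**Figure D5:**
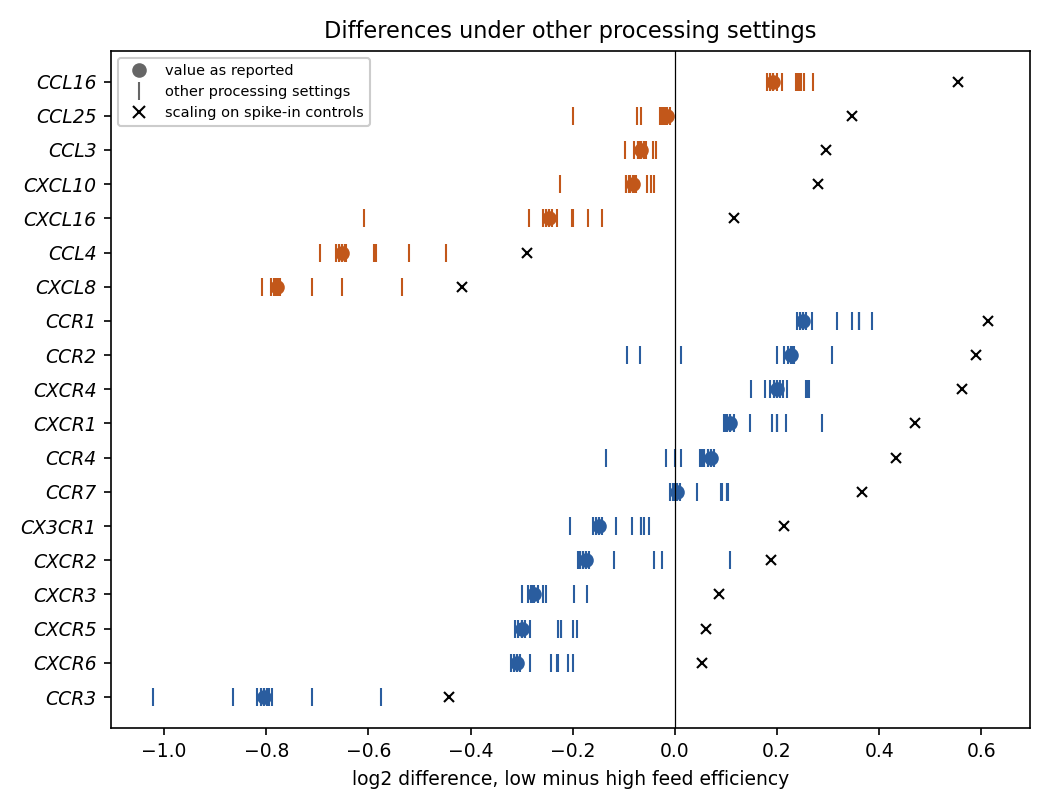
For each measured member the point is the log2 difference as reported (low minus high feed efficiency), the ticks are the other processing settings and the cross is scaling on spike-in controls. CXCL8, CCL4 and CCR3 stay left of 0 and CCL16, CXCR1, CXCR4 and CCR1 right of it at every mark, while the crosses of the other members that are below 0 as reported all lie right of 0.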

How the data were processed

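The labels describe whole blood RNA on 1 Cy3 array per group, made from total RNA. The deposited scanner files hold spot intensity at 532 nm and, per the file headers, come from GenePix Pro 6.1.0.4 and a GenePix 4000B scanner; Agilent Feature Extraction is what the submitters' processing notes name. The intensity used is the pixel median minus a background taken from negative controls, per the file headers. Each deposited file also gives a flag score (100 good, 0 unflagged, -50 not found) and the percent of a spot's pixels that were saturated. The authors' deposited log2 table followed the scanner values in rank order only after it was moved by 1 row, and served as an alternative.

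Of 43803 probe spots per array, 408 in low and 283 in high feed efficiency were bright but marked not found; these probes were left out on both arrays, 3 member probes among them. No member spot was saturated. A probe was above background over the median of 153 negative controls plus 3 robust SDs. A gene was read by the brightest of its probes that passed on both arrays. A bound was set against the dim probe's own signal or the array's lowest detected one, whichever was higher. Of the member probes, 60 were named by accession and 16 by the array's symbol. The RefSeq table of ARS-UCD2.0 served for names and gene order.

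Every member is accounted for. Of the other signalling and receptor lists the member farthest from 0, and of marker lists the brightest 2, are named. GNAI2, RAC2, PF4, PPBP, XCL1, CXCL1, ALAS2, CSF1R, NKG7 and WC1 were added after their values were seen. A B cell marker that this rule names is not reported here. Members and lists were chosen with earlier results of these data known. Neither slide nor scan separated the groups, per the file headers. Each group had its own array, however, so a difference between arrays cannot be told apart from one between groups. The 15 alternative settings cover background, scaling, normalization, filters, probe choice and naming, with normexp from limma 3.58.1 (R 4.3.3) and the rest in NumPy 2.4.6 and pandas 2.3.3; the steps were tested on simulated data.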

Additional observations from a re-analysis of the deposited data

How the results depend on the processing

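Scaling on spike-in controls moved the ligand median to 0.28 and the receptor median to 0.29. The receptor median, close to 0, was also positive with a background threshold of 2 robust SDs (0.010), with only good spots (0.0036) and with the array's own symbols (0.037). The ligand median kept its sign in the other 14 settings. With the pixel mean minus background 1 member (CCR3) was 2-fold lower, where 73 of 10339 genes were 2-fold or more lower and 50 higher. In that setting 3 members were 1.5-fold lower, where 3.54% of all genes were. None was 1.5-fold higher, where 2.90% of all genes were. The number of members measured was 13 to 20. CCR2, CCR4, CCR7 and CXCR2 changed sign in a setting other than spike-in scaling, and CXCL10, CXCL16, CCL3, CCL25, CXCR3, CXCR5, CXCR6 and CX3CR1 changed sign under spike-in scaling alone. The cause was not tested. Dim probes near 10.9 have differences with no more precision than a few units of intensity. No paired analysis was possible because each group had 1 array.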

Other observations

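Some probes with chemokine text on the array fell outside the naming rule and were looked at after their values were seen. The probe of LOC508666, described on the array as C-C motif chemokine 23, a myeloid chemokine in other species, read 52169 on the low and 49454 on the high efficiency array, a difference of -0.20. A probe without a gene symbol, described as C-C ligand 1, read 6274 and 6853, a difference of -0.40. LOC616364, described as like CCL3, read 79 and 86, a difference of -0.40, where CCL3 itself was -0.07. LOC529196, described as like CCR1, read 58 and 55, a difference of -0.20, where CCR1 itself was 0.25. A probe without a symbol described as CX3CL1 read 17 and 18, above background on both arrays, another so described read 6 and 5, below background, while the CX3CL1 probe taken by the rule read 6 and 8. Genes and near-identical copies may share signal on a probe, which was not tested.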
